A study of Mus musculus with 10 samples.

Results

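The genes described here are 8 genes of cholesterol and fatty acid synthesis, taken by symbol from the 55453 gene symbols of a table of RNA-seq read counts from mouse aorta. They are Srebf1 and Srebf2, the transcription factors of the pathway, Insig1, which holds those factors back, the sterol enzymes Hmgcs1, Idi1 and Sqle, and the fatty acid enzymes Fasn and Scd1. All 8 had reads in all 10 libraries and were among the 14614 genes tested. The study asked how the transcriptome of the aorta differs between young and old animals. It compared 5 young male C57BL/6 mice aged 14.5 weeks with 5 old ones aged 92.5 weeks, with 1 library per mouse. Both groups were inbred, carried no transgene and ate standard chow, and they were killed at the same time. Each aorta was perfused with saline and stripped of the surrounding fat before RNA was extracted from the whole vessel.

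Cells sense sterols in the membrane of the endoplasmic reticulum. When sterols are scarce, the SREBP proteins encoded by Srebf1 and Srebf2 travel to the Golgi, are cut there, and enter the nucleus as transcription factors. When sterols are plentiful, the Insig1 protein keeps them in the endoplasmic reticulum. SREBP-2 mainly drives cholesterol synthesis and uptake, and a form of SREBP-1 mainly drives fatty acid synthesis. Adipocytes are rich in the fatty acid enzymes, and they are the main source of the hormone adiponectin, encoded by Adipoq, so that its transcript serves as a trace of fat in an aorta library.

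Total read counts were 19640401 to 22886153 per library, and the 8 genes together took from 0.0624% of them in old 2 to 0.333% in young 1. These are also the libraries in which the genes stood apart. Young 1 held the highest level of 5 of the 8 genes and the highest Adipoq level, and old 2 held the lowest level of 6 of the 8. Mitochondrial transcripts made up 11.0% of the counts in old 2 and 4.50% to 6.51% in the other libraries. The part of the mitochondrial share in the levels of the 8 genes was not tested. In RNA from a whole vessel, fewer cells of a type and less RNA per cell cannot be told apart.

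On GRCm38, Fasn (ENSMUSG00000025153) lies at chr11:120805846-120824547 on the minus strand and Scd1 (ENSMUSG00000037071) at chr19:44394455-44407879 on the minus strand. Srebf1 (ENSMUSG00000020538) lies at chr11:60199089-60222581 on the minus strand and Srebf2 (ENSMUSG00000022463) at chr15:82147181-82205379 on the plus strand. Insig1 (ENSMUSG00000045294) lies at chr5:28071363-28078662, Hmgcs1 (ENSMUSG00000093930) at chr13:119690379-119708260, Idi1 (ENSMUSG00000058258) at chr13:8885501-8892451 and Sqle (ENSMUSG00000022351) at chr15:59315077-59331192, all on the plus strand. The values are counts over the exons of each gene. Of the 50-base windows of the transcripts, 25.3% for Idi1 and 11.6% for Hmgcs1 also occur in other genes or pseudogenes, and the share is 4.56% for Scd1, whose copies include Scd2 and Scd3. It is 2.17% or less for the other 5. The counts of Idi1 and Hmgcs1 are therefore the least certain in their assignment.

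RefSeq promoter windows, from 250 bases before to 50 bases after a transcription start on GRCm38.p6, were at hand for 6 of the 8 genes (8 windows, 3 of them for Srebf1). The stretches of 3 of them are shown here because these genes stand for the branches of the pathway: Fasn for fatty acids, Hmgcs1 for sterols and Insig1 for the sterol brake. Each covers bases -250 to -51 from the start, read 5′ to 3′ on the gene's strand, and lies at chr11:120824598-120824797 (minus strand) for Fasn, chr13:119690101-119690300 (plus strand) for Hmgcs1 and chr5:28071162-28071361 (plus strand) for Insig1. Capitals mark the sterol regulatory element TCACNCCAC, the NF-Y box CCAAT and the E-box CACGTG, on either strand.
Fasn: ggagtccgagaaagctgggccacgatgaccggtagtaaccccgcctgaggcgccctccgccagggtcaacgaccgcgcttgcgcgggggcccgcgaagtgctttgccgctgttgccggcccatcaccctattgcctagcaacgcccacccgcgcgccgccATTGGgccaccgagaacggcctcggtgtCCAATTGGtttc
Hmgcs1: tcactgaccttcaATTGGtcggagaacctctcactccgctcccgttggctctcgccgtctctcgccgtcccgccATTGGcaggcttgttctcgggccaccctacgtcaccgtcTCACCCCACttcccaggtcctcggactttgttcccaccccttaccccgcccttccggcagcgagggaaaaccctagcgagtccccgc
Insig1: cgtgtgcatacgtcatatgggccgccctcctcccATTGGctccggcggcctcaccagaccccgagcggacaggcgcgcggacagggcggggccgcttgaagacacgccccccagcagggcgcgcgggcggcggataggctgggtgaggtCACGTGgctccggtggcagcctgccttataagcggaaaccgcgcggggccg

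The sterol regulatory element, the short sequence that SREBP proteins bind, matched in the Hmgcs1 window alone, at bases -137 to -129, and in 1.24% of all 32851 mouse promoter windows. The CCAAT box, bound by the SREBP partner NF-Y, matched in a window of each of the 6 genes and in 37.4% of all windows. In Fasn, 2 of its 3 CCAAT matches overlap on opposite strands. The Sp1 box GGGCGG, not marked in capitals, matched in 5 of the 6 genes and in 35.7% of all windows, and the E-box matched in Insig1 alone, at bases -101 to -96, and in 7.15% of all windows. These are matches of letters in these windows, not measured binding.

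Among the fatty acid enzymes, Fasn fell with age, and its young and old mice did not overlap. Fasn builds palmitate, the starting point of the other saturated fatty acids of the cell. Its normalized read counts (counts divided by DESeq2 size factors) were 20886, 7319, 7244, 10249 and 5806 in young 1 to 5 and 3387, 2596, 5165, 4119 and 5135 in old 1 to 5. The lowest young mouse was above the highest old mouse, and young 1 was far above the other young mice. Mean levels were 10301 ± 6133 (SD, n = 5) in young and 4080 ± 1115 (SD, n = 5) in old aortae, a ratio of 0.396. The log2 fold change was -1.33 (SE 0.37, 95% interval -2.16 to -0.50), with a Benjamini-Hochberg adjusted p of 0.0479 by edgeR's quasi-likelihood test. Without young 1 the log2 fold change was -0.90, with an edgeR adjusted p of 0.0302. The call was close to the threshold of 0.05. It was lost without young 2, without young 4 or without any single old mouse, with edgeR adjusted p-values of 0.0657 to 0.0981.

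Scd1, which puts a double bond into saturated fatty acids, had a lower mean in old aortae but was not called. Its normalized counts were 37511, 8984, 10292, 16314 and 9191 in young 1 to 5 and 6103, 4726, 11661, 9303 and 10969 in old 1 to 5. Young 1 was far above every other mouse, and 3 of the old mice lay within the range of the young. Its log2 fold change was -0.94 (SE 0.45), with an edgeR adjusted p of 0.227. Without young 1 it was -0.38, with an edgeR adjusted p of 0.448.

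The sterol enzymes had lower means in old aortae, and none was called. Hmgcs1 makes HMG-CoA from acetyl-CoA units, an early step of the pathway. Its normalized counts were 1827, 1982, 1271, 1450 and 982 in young 1 to 5 and 1210, 754, 1130, 1421 and 1073 in old 1 to 5. The groups overlapped, with the lowest value in old 2. Its log2 fold change was -0.42 (SE 0.21), with an edgeR adjusted p of 0.230. Sqle oxidizes squalene, the first oxygen-dependent step toward the sterol rings. Its normalized counts were 670, 904, 483, 633 and 546 in young 1 to 5 and 725, 276, 403, 483 and 394 in old 1 to 5. Old 1 was above 4 of the young mice, and the other old mice were level with young 3 or below it. For Sqle the log2 fold change was -0.50 (SE 0.25), with an edgeR adjusted p of 0.231. When old 1 was left out it was -0.73, with an edgeR adjusted p of 0.0431.

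Idi1, the isomerase that readies isoprene units for chain building, was the least abundant of the 8 genes, with as few as 24 reads in a library. Its normalized counts were 124, 116, 53.8, 55.0 and 50.2 in young 1 to 5 and 69.0, 26.2, 52.2, 47.2 and 50.6 in old 1 to 5. Young 1 and young 2 were above all other mice, and old 2 was below them. The other 7 mice lay between 47.2 and 69.0. Its log2 fold change was -0.69 (SE 0.31, 95% interval -1.37 to -0.01), with an edgeR adjusted p of 0.182, and it was -0.32 without young 1 and old 2.

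The transcription factors had the smallest log2 fold changes of the 8 genes, and neither was called. Srebf2 had normalized counts of 3682, 4685, 3105, 4166 and 3862 in young 1 to 5 and 3871, 2482, 3216, 3524 and 3229 in old 1 to 5. Its groups overlapped, and old 2 was lowest. For Srebf2 the log2 fold change was -0.25 (SE 0.12, 95% interval -0.51 to 0.02), with an edgeR adjusted p of 0.219. Srebf1 had normalized counts of 3676, 2348, 2212, 2128 and 1967 in young 1 to 5 and 2382, 2031, 2016, 1976 and 1769 in old 1 to 5. Apart from young 1, the young and old mice covered much the same range. The log2 fold change was -0.27 (SE 0.16, 95% interval -0.62 to 0.08), with an edgeR adjusted p of 0.311, and -0.08 without young 1.

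Insig1, itself a target of the SREBP proteins, differed mainly through young 1. Its normalized counts were 1629, 730, 557, 602 and 480 in young 1 to 5 and 434, 473, 574, 558 and 575 in old 1 to 5. The 5 old mice lay within a narrow range that also held young 3 and young 5. The log2 fold change was -0.60 (SE 0.32, 95% interval -1.32 to 0.11), with an edgeR adjusted p of 0.267, and -0.17 without young 1.

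**Figure D1:**
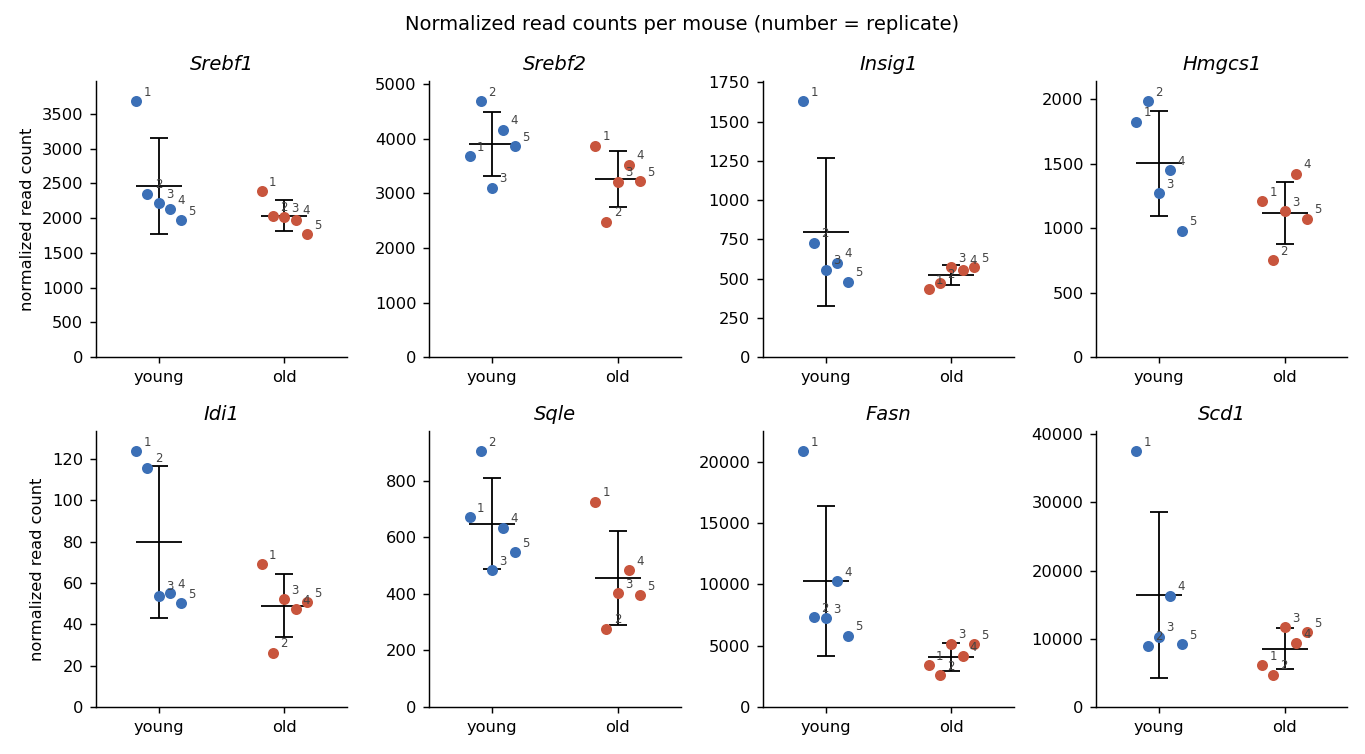
Normalized read counts (y axis, from 0) of the 8 genes in the 5 young and 5 old aortae, with the replicate number beside each point and the mean and SD of each group as bars. Fasn is the only panel in which no old mouse reaches the young range, from 5806 upward, and young 1 is the top point for Fasn, Scd1, Insig1, Srebf1 and Idi1.

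In all, 8 of 8 genes had a negative log2 fold change, with a median of -0.55, whereas 49.2% of all tested genes were negative and their median was 0.003. edgeR called 1 of the 8 at a Benjamini-Hochberg adjusted p below 0.05, beside a share of 11.5% of all tested genes called in either direction and 4.99% called lower in old. Of the 8, 1 had groups that did not overlap, with old below young, and that share was 4.55% over all tested genes. Thus the count of calls among the 8 was near the background. Without young 1 and old 2, the 8 values were still negative with a median of -0.23, and edgeR called Fasn alone (log2 fold change -0.78, adjusted p 0.0324) beside 14.8% of all tested genes.

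Read counts per kilobase of exon allow the levels of different genes to be compared. In young aortae the mean normalized count per kilobase was 3364 for Scd1, 941 for Fasn, 543 for Srebf2, 438 for Srebf1, 327 for Hmgcs1, 258 for Insig1, 117 for Sqle and 22.7 for Idi1. In that order the range of each gene over the 5 mice overlapped that of the next, except for Sqle and Idi1. These ranges do not pair the genes within a mouse. In every mouse of both ages Scd1 was above Fasn per kilobase, with count ratios of 1.23 to 2.26 and fewer exonic bases (4892 against 10947). In old aortae the mean level per kilobase of Scd1 was 1748. The mean of Srebf2 (454) stood above that of Fasn (373), so that Fasn moved down a place by mean, though not in every old mouse. In the old mice Scd1 did not overlap Srebf2, Srebf1 (361) did not overlap Hmgcs1 (243), Insig1 (169) did not overlap Sqle (82.2), and Sqle did not overlap Idi1, while the other neighbours overlapped.

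The fat trace also differed between mice. Adipoq had normalized counts of 2665, 744, 834, 1314 and 709 in young 1 to 5 and 394, 1021, 633, 557 and 506 in old 1 to 5. Young 1 was highest and old 2 was highest of the old. The mean was 1253 ± 826 (SD, n = 5) in young and 622 ± 239 (SD, n = 5) in old aortae, a ratio of 0.496, with an edgeR adjusted p of 0.165. Without young 1 its log2 fold change was -0.53, with an edgeR adjusted p of 0.274. The summed level of 9 white fat markers ran from 15152 to 53405 in young and from 8516 to 20494 in old aortae, with young 1 highest (exact two-sided permutation p = 0.0556, adjusted p = 0.143 over 8 marker lists). None of these 9 markers was called, and none was at 0. Each had a negative log2 fold change, with a median of -1.04, beside 49.2% of all tested genes negative. Plin1 (-1.10, edgeR adjusted p 0.0991) had all old mice below all young mice, as did 4.55% of all tested genes.

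When the Adipoq level of each library entered the edgeR fit as a covariate, the values of Scd1, Insig1 and Srebf1 came close to 0, while those of the sterol enzymes and Srebf2 stayed negative. The log2 fold change of Scd1 became 0.06 (95% interval -1.02 to 1.14) and that of Insig1 0.05 (-0.55 to 0.65). That of Srebf1 became -0.01 (-0.37 to 0.35), and that of Fasn became -0.59 (-1.43 to 0.25). Sqle stood at -0.73 (95% interval -1.45 to -0.02) and Srebf2 at -0.39 (-0.71 to -0.07). Hmgcs1 stood at -0.39 (-1.05 to 0.26) and Idi1 at -0.60 (-1.52 to 0.32), with intervals that include 0. With the covariate, edgeR called 0 of the 8 genes at a Benjamini-Hochberg adjusted p below 0.05, whereas 14.7% of all tested genes were called. At an unadjusted p below 0.05 there were 2, and the lowest adjusted p was 0.0932, for Srebf2. Voom and DESeq2 were not run with this covariate. Whether the shift differs between the fatty acid and the sterol genes was not tested.

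**Figure D2:**
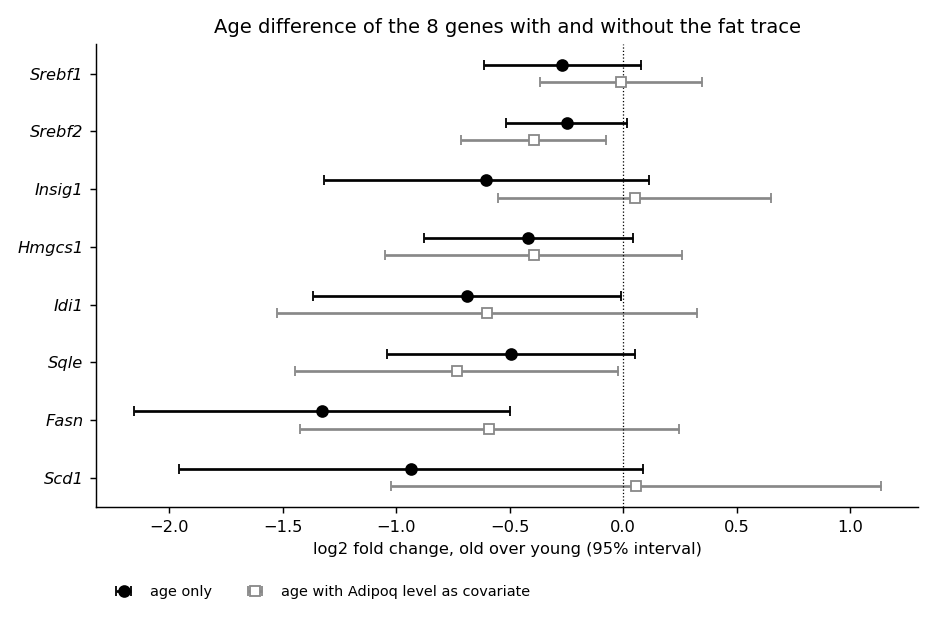
Log2 fold change of old over young aortae (x axis, with 95% interval) of the 8 genes, from a fit of age alone (black circles) and from a fit with the Adipoq level as a covariate (open squares). Scd1, Insig1 and Srebf1 move to between -0.01 and 0.06 with the covariate, while Sqle and Srebf2 stay below 0 with intervals that end at -0.02 and -0.07. The covariate intervals of all other genes, Hmgcs1 and Idi1 included, hold 0.

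Within the groups, no relation of the 8 genes to Adipoq over all 10 mice passed. With group means removed, Pearson's r with Adipoq was 0.72 for Insig1, 0.61 for Srebf1, 0.60 for Scd1 and 0.60 for Fasn. It was 0.04 for Hmgcs1, 0.01 for Idi1, -0.36 for Sqle and -0.45 for Srebf2. Spearman's rho was 0.61 for Insig1, 0.43 for Srebf1, 0.44 for Scd1 and 0.55 for Fasn, and -0.49 to 0.10 for the other 4. The lowest adjusted p over the 8 genes, by exact permutation within the groups, was 0.283 for r and 0.41 for rho.

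With group means removed, young 1 and old 2 were the mice farthest from the median of Adipoq, both on the high side. Without both, r was 0.93 for Scd1 (exact permutation p = 0.0139) and 0.88 for Fasn (exact permutation p = 0.0174), each with an adjusted p of 0.0694 over the 8 genes. It was -0.16 for Srebf2 and -0.38 for Sqle, and 0.40 for Insig1 and -0.30 for Srebf1. The relations of Insig1 and Srebf1 rest on young 1, since without it alone r was 0.0833 for Insig1 and -0.20 for Srebf1. Without old 2 alone these values were 0.87 and 0.69. Without old 2 alone, r was 0.98 for Scd1 and 0.97 for Fasn, each with an adjusted p of 0.0139 by exact permutation, and without young 1 alone it was 0.03 and -0.01. For Scd1 and Fasn, r with Adipoq was therefore high when old 2 was left out, with young 1 or without it. With old 2 kept, r depended on young 1.

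**Figure D3:**
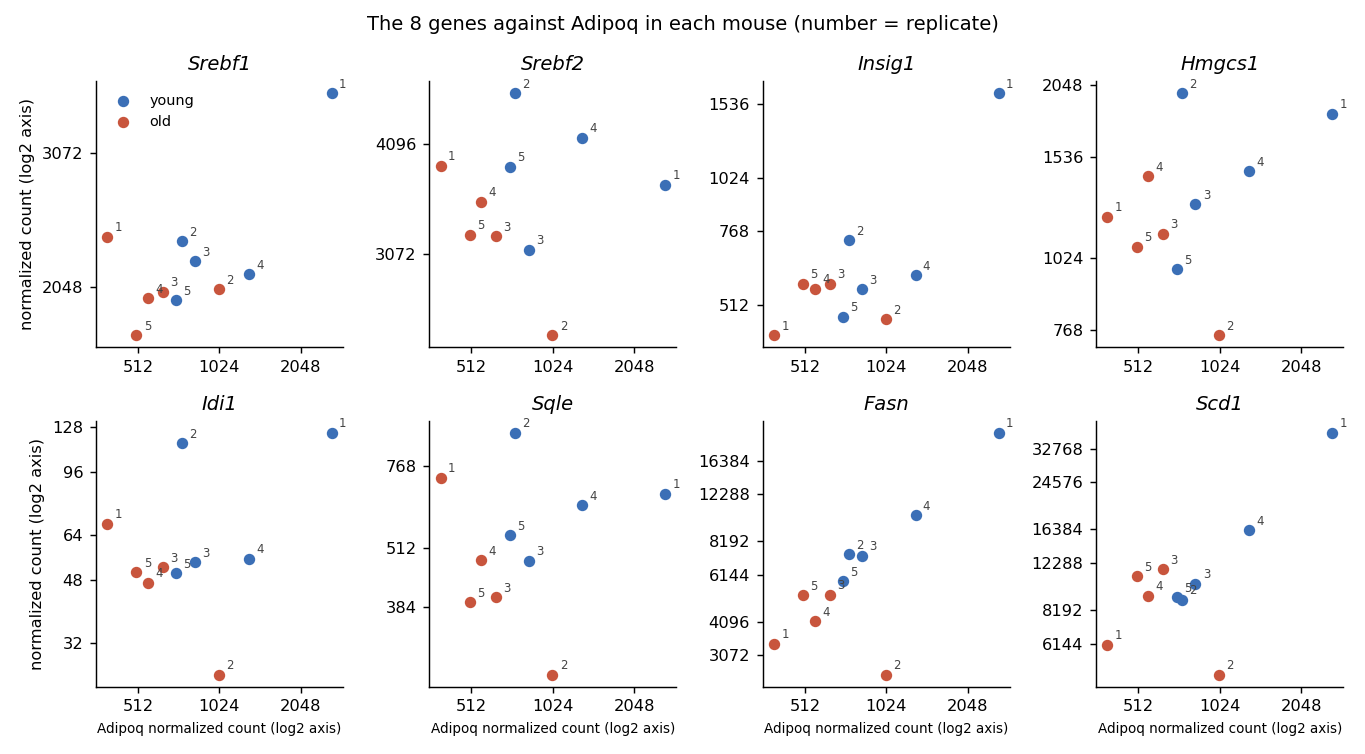
Normalized read count of each of the 8 genes (y axis, log2 scale) against that of Adipoq (x axis, log2 scale) in the 10 mice, numbered by replicate. For Fasn and Scd1 the mice other than old 2 lie along a rising band, whereas Srebf2 and Sqle show no such band, and old 2 lies below the other mice in the panels of Fasn, Scd1, Srebf2, Hmgcs1, Idi1 and Sqle.

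Ratios within a library do not depend on its scaling. They were chosen after the values had been seen, over 36 pairs of the 8 genes and Adipoq. The ratio of Fasn to Adipoq was 7.84, 9.84, 8.69, 7.80 and 8.19 in young 1 to 5 and 8.60, 2.54, 8.16, 7.39 and 10.2 in old 1 to 5. All mice but old 2 lay between 7.39 and 10.2, and the groups did not differ beyond their spread (log2 difference -0.34, exact two-sided permutation p = 0.540, adjusted p = 0.762). Without old 2 the log2 difference was 0.0138. The ratio of Scd1 to Adipoq was 14.1, 12.1, 12.3, 12.4 and 13.0 in young 1 to 5 and 15.5, 4.63, 18.4, 16.7 and 21.7 in old 1 to 5. The groups overlapped only through old 2, which had the lowest ratio of all, while the other 4 old mice were above all young mice. The log2 difference was 0.10 (exact permutation p = 0.913, adjusted p = 0.939), and without old 2 it was 0.49. No p-value is given for the latter, since leaving out the only overlapping mouse fixed the separation of the groups in advance.

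The ratio of Scd1 to Fasn had a higher mean in old aortae but did not pass after adjustment. It was 1.80, 1.23, 1.42, 1.59 and 1.58 in young 1 to 5 and 1.80, 1.82, 2.26, 2.26 and 2.14 in old 1 to 5. The groups did not overlap, but young 1 and old 1 nearly touched. The log2 difference was 0.44 (exact two-sided permutation p = 0.00794, the smallest that 5 against 5 allow), with an adjusted p of 0.0952 over the 36 pairs. With so few of the 36 pairs at that smallest p, an adjusted p below 0.05 was out of reach. The adjusted p therefore cannot decide whether the ratio differed. The log2 difference ran from 0.36 to 0.50 when each mouse was left out in turn. The ratios of Srebf1 to Fasn (log2 difference 0.97) and of Insig1 to Fasn (0.75) did not overlap between the groups either, with the same exact permutation p and the same adjusted p. Fasn is the denominator of each of these ratios, and its own counts did not overlap between the groups. The ratios are therefore not results separate from that of Fasn. No other pair of the 36 had groups that did not overlap, and no pair passed after adjustment.

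**Figure D4:**
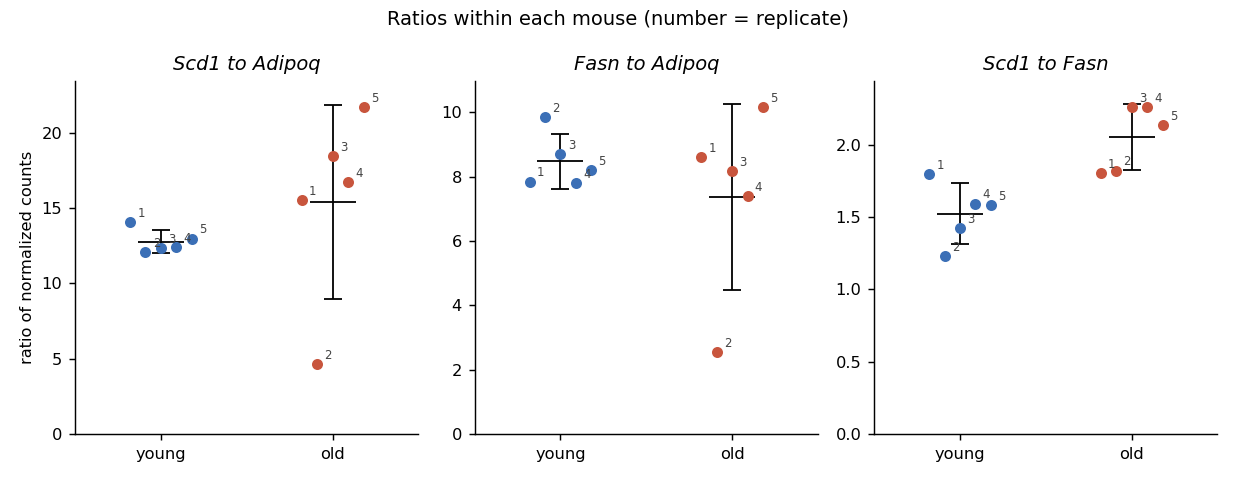
Ratio of normalized counts (y axis, from 0) of Scd1 to Adipoq, Fasn to Adipoq and Scd1 to Fasn in each young and old mouse, with the mean and SD of each group and the replicate number beside each point. Old 2 lies far below the others for both ratios to Adipoq (4.63 and 2.54) but among the other old mice for Scd1 to Fasn (1.82).

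Some of the 8 genes varied together from mouse to mouse. The values are Pearson's r over the 10 libraries in log2 normalized counts with group means removed, and they are a description, since all pairs share the same libraries. Scd1, Fasn and Insig1 had r of 0.83 to 0.98 with each other, the highest being that of Scd1 with Fasn, and Srebf1 had 0.55 to 0.79 with these 3 but also 0.65 with Idi1 and 0.49 with Hmgcs1. Srebf2, Sqle, Hmgcs1 and Idi1 had r of 0.64 to 0.91 with each other, the highest being that of Srebf2 with Sqle. Srebf2 and Sqle had 0.01 to 0.17 with Scd1, Fasn and Insig1, whereas Hmgcs1 and Idi1 had 0.48 to 0.63 with them, so that Idi1 was about as close to Insig1 (0.63) as to Srebf2 (0.64). The transcription factors themselves had r of 0.04.

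The tested genes most like each gene over the 10 libraries, by the same measure, included other lipid genes. Next to Scd1 stood Elovl6 (r 0.98), which lengthens palmitate, then Tkt and Ctnnbip1. Next to Fasn stood Dbi (r 0.97), which binds acyl-CoA, then Elovl6 and Pnpla3. Insig1 was followed by Acss2 (r 0.97), which makes acetyl-CoA from acetate, Fscn1 and Acaca. Srebf2 was followed by Elovl1 (r 0.98), Mmp17 and Col12a1, Sqle by Gm9887 (r 0.93) and Elovl1, and Idi1 by Mettl26, Castor1 and Sc5d (r 0.95), a late enzyme of cholesterol synthesis. Hmgcs1 was followed by Nrcam (r 0.95), D5Ertd579e and Stimate, and Srebf1 by Tlcd1 (r 0.94), Agfg2 and Mmp11.

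The rest of the pathway was read from 6 lists of 75 genes, the 8 genes included, of which 73 were tested. Of these, 5 were called lower and 1 higher in old aortae, beside 4.99% of all tested genes called lower and 11.5% called in either direction. Leaving out 1 mouse moved the 6 calls to between 2 (without young 4 or old 5) and 14 (without young 1). A negative log2 fold change was found for 56 of the 73, beside 49.2% of all tested genes, and the median was -0.27, or -0.15 without young 1 and old 2. The list of 21 cholesterol synthesis enzymes had 17 negative values and a median of -0.34 (-0.16 without young 1 and old 2), but only Lbr was called (log2 fold change -0.34, edgeR adjusted p 0.0333). Lbr is a sterol reductase of the nuclear envelope.

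In fatty acid synthesis and desaturation, 4 of 16 tested genes were called, all lower in old, beside 4.99% of all tested genes. Of the 16 values 15 were negative, with a median of -0.47, or -0.22 without young 1 and old 2. Besides Fasn these were Acly, which makes cytosolic acetyl-CoA from citrate, Elovl5, which lengthens polyunsaturated fatty acids, and Fads2, a desaturase of the same route. Acly fell by 0.50 on the log2 scale (SE 0.13, edgeR adjusted p 0.0274), from 3060 to 5265 normalized counts in young to 2391 to 2858 in old aortae. Elovl5 fell by 0.44 (SE 0.07, edgeR adjusted p 0.00128), from 1543 to 1788 in young to 1073 to 1317 in old. Fads2 fell by 0.30 (SE 0.08, edgeR adjusted p 0.0279), from 1793 to 2037 in young to 1236 to 1688 in old. Acaca, whose product malonyl-CoA feeds Fasn, did not overlap between the groups (1311 to 3044 in young, 949 to 1226 in old) and had a log2 fold change of -0.74 (SE 0.22, edgeR adjusted p 0.0579). Without young 1 that of Acaca was -0.46, with an edgeR adjusted p of 0.00514.

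With the Adipoq covariate, the median of the fatty acid list was -0.14, and Elovl5 alone was called in it (log2 fold change -0.45, edgeR adjusted p 0.00574). The log2 fold change of Fads2 hardly moved, from -0.30 to -0.31 (edgeR adjusted p 0.0553 with the covariate). Those of Acly and Fasn came closer to 0, at -0.23 (edgeR adjusted p 0.174) and -0.59 (0.320). The list of 8 genes of triglyceride synthesis and storage had no call, and its median was -0.48 (-0.23 without young 1 and old 2), or 0.10 with the covariate. In that list the covariate fit called 2 genes, Lpin1 (log2 fold change 0.37) and Pnpla2 (0.30), beside 14.7% of all tested genes. The median of the cholesterol synthesis enzymes was -0.25 with the covariate, and none of the 21 was called. Among them the log2 fold change of Lbr hardly moved, from -0.34 to -0.35 (edgeR adjusted p 0.0639 with the covariate).

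Genes that handle cholesterol already made had values in both directions. Of 9 tested genes of uptake and transport, Nceh1, a cholesteryl ester hydrolase, rose with age (log2 fold change 0.78, SE 0.11, edgeR adjusted p 0.000829), from 162 to 201 normalized counts in young to 254 to 363 in old. It was 0.79 with the covariate, and that fit also called Npc1, which was lower in old (log2 fold change -0.28, edgeR adjusted p 0.00971). The median of that list was 0.01. Of 8 genes of LXR and sterol efflux none was called, with 4 negative and a median of 0.13, but the covariate fit called 3, Nr1h3 (log2 fold change 0.54), Apoe (0.53) and Cyp27a1 (0.59), beside 14.7% of all tested genes called in that fit. Of 11 genes of SREBP processing and sterol sensing none was called, 10 were negative and the median was -0.13. With the covariate, 1 of the 11 was called, beside 14.7% of all tested genes. It was Mbtps1, a protease that cuts SREBP, at -0.22. Its edgeR adjusted p was 0.0499, at the edge of the threshold, and 0.112 in the fit without the covariate.

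**Figure D5:**
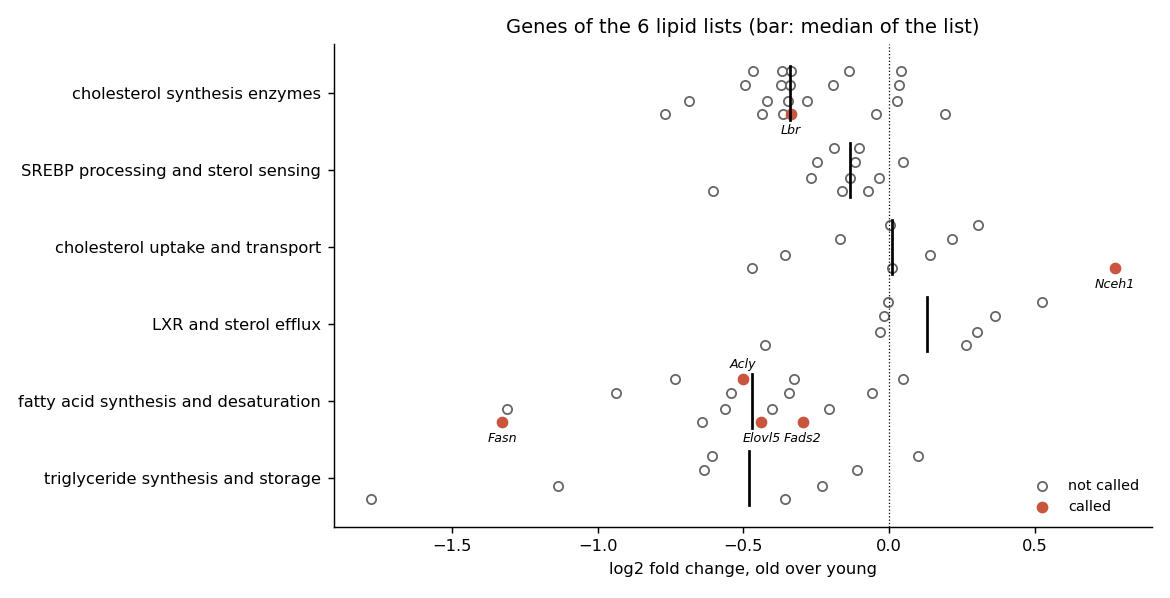
Log2 fold change of old over young aortae (x axis) of each tested gene in 6 lipid lists, with called genes filled and named and the median of each list as a black bar. The lists of fatty acid and cholesterol synthesis centre below 0 (medians -0.47 and -0.34), and those of uptake and of sterol efflux at 0.01 and 0.13.

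Markers of the cell types of the vessel were read beside these genes. Smooth muscle markers passed the low-count filter in 6 of 6 and summed to between 702245 and 916825 in every library (exact permutation p = 0.246 between the ages). They do not tell the aorta from other tissues with smooth muscle. The sum of 5 macrophage markers was 3613 to 4847 in young and 4911 to 9436 in old aortae without overlap (exact permutation p = 0.00794, adjusted p = 0.0635 over 8 lists). That p is the smallest that 5 against 5 allow, so a lone list at it could not reach an adjusted p below 0.05. By edgeR, 3 of the 5 macrophage markers were called higher. The sum of 5 endothelial markers was 18019 to 30970 in young and 9069 to 21066 in old (exact permutation p = 0.0317, adjusted p = 0.127), with none called. Fibroblast, Schwann cell, brown fat and blood markers had exact permutation p-values of 0.143, 0.0952, 0.0714 and 0.952. By edgeR, Lum was called higher and Pi16 lower among the fibroblast markers, Prx higher among the Schwann cell markers, Dio2 lower among the brown fat markers, and none among the blood or smooth muscle markers. Dio2 made up most of the brown fat sum, with a young mean of 1919 against 168 to 465 for the other markers of that list. The log2 fold change was -0.67 for Dio2, -0.63 for Cidea, -0.04 for Cox8b and 0.06 for Ucp1. The part of macrophages and endothelial cells in the levels of the 8 genes was not tested.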

How the data were processed

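RNA-seq libraries (TruSeq Stranded mRNA) were made from 10 aortae, 1 per mouse, so that replicates are separate mice. The authors trimmed reads with fastp 0.20.0, dropping those under 35 bases, aligned them to GRCm38 with STAR 2.7.0f and counted them per gene with Subread 1.6.4. The deposited table holds these raw counts, without normalization. The strand setting of the counting is not given in the sources used here.

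Genes passing filterByExpr (14614 of 28011 with a count) were compared with the quasi-likelihood F test of edgeR 4.0.16 (robust, TMM scaling, R 4.3.3). P-values were adjusted by Benjamini-Hochberg over all tested genes, and genes were called below 0.05. Levels are counts over the size factors of DESeq2 1.42.0. Correlations used log2(normalized count + 1) and exact permutation within groups (14400 rearrangements, 576 without 2 mice), and sums and ratios used all 252 assignments of mice to groups. Positions came from GENCODE M21 (the alignment had used M22, also on GRCm38). Tests were tried on simulated data. Named were the 8 genes, Adipoq, Acaca, Acly, every called gene of the 6 lipid lists and the 3 most similar genes per member, except that a few genes are not reported here. Genes named only beside the covariate fit were picked from its results. The genes and lists were chosen with earlier results of these data known.

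Alternatives were DESeq2, limma-voom 3.58.1, other scalings and filters, the replicate block, the Adipoq covariate, other pseudocounts and each mouse left out. Added after seeing the data were a white fat covariate, the omission of young 1 and old 2 together, and the ratios.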

Additional observations from a re-analysis of the deposited data

Results flagged for a closer look

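Of 54 sets of 5 values examined, 8 held a mouse that stood apart from the other 4 of its group by Dixon's criterion (critical value 0.71). Chance gives about 1 in 20 for unrelated sets of normally distributed values. These sets were not log-transformed, come from the same mice and include genes that varied together, so 8 of 54 cannot be measured against that rate. Young 1 was that mouse for 6 of them, high each time. It had normalized counts of 3676 for Srebf1, 1629 for Insig1 and 37511 for Scd1, of 3044 for Acaca and 5265 for Acly, and a summed level of Schwann cell markers of 1646. Old 3 stood high for the summed macrophage markers, at 9436. Old 2 stood high for the share of mitochondrial transcripts, at 11.0% of its counts.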

How the results depend on the processing

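Of 168 log2 fold changes of the 8 genes, over 21 alternatives each, 164 kept the negative sign. The exceptions were Insig1 and Scd1 at 0.0499 and 0.0561 with Adipoq as covariate and at 0.0738 and 0.0954 with summed white fat markers as covariate. Fasn was called in 8 of the 21 alternatives (edgeR, DESeq2 or voom adjusted p 0.00651 to 0.339). It was not called with upper-quartile factors (-1.31, edgeR adjusted p 0.0547), library size alone (-1.32, 0.0588), no low-count filter (-1.33, 0.107), the Adipoq covariate (-0.59, 0.320) or the white fat covariate (-0.55, 0.339), and 0 of the 8 genes were called in these fits. It was also lost without young 2 or 4 or any 1 of the old mice, and its log2 fold change ran from -1.48 to -0.90 with each mouse left out. Of the 8 genes, 0 to 1 were called in those fits, the 1 without old 1 being Sqle, which ran from -0.73 to -0.35. Neither the labels nor the paper state that same-numbered mice were paired. The r between their deviations from the group means was -0.29 to 0.13, with 2 of 5 young mice most like their own number. These values cannot show whether same-numbered mice shared a step of preparation. The replicate block called 0 of the 8 genes (Fasn -1.20, edgeR adjusted p 0.147) and 1261 genes in all against 1676.

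Elovl5 and Nceh1 were called in all 21 alternatives (adjusted p at most 0.00621 and 0.00494), Fads2 in 16 (0.00760 to 0.0656), Acly in 13 (0.00228 to 0.197), Lbr in 13 (0.0104 to 0.0856), and Acaca in 5, by edgeR, DESeq2 or voom. Of the pathway genes, 6 were called, but 12 with DESeq2, 12 without young 1 and old 2, and 2 to 14 with each mouse left out (14 without young 1, 3 without young 2, 2 without young 4 or old 5). With group means kept in, r with Adipoq was 0.00959 for Srebf2 and 0.10 for Sqle. With each mouse left out, r ran from -0.20 to 0.82 for Srebf1, from -0.37 to 0.41 for Hmgcs1, from -0.68 to 0.37 for Idi1 and from -0.00921 to 0.97 for Fasn, and 0 to 2 genes passed (2 without old 2). Marker lists passing ran from 0 to 2 (2 without old 2). The log2 ratio difference ran from -0.49 to 0.0138 for Fasn to Adipoq and from -0.0657 to 0.49 for Scd1 to Adipoq. The cause of these shifts was not tested. With 5 mice per group and the wide spread of Scd1 and Insig1, their intervals include 0 and also falls larger than their estimates.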
